A study of Mus musculus with 12 samples.

Results

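Nkx1-2, Evx1, Evx1os, Gbx2, Sp8 and Mnx1 were chosen by name as regulators of the caudal end of the embryo, and they are 6 of the 24736 genes in the table of RNA sequencing counts. All 6 passed the filter on low counts. The 12 libraries were made from mouse embryonic stem cells differentiated for 72 h, with 3 replicates in each of 4 groups, which the labels call biological replicates. Every culture received FGF and LGK974, an inhibitor of porcupine that blocks secretion of WNT ligands. EpiLC (epiblast-like cells) were wild type, from a line that carries the TetON system without the SOX2 changes, and received nothing else. CEpiLC (caudal epiblast-like cells) were the same wild type line exposed between day 2 and day 3 to CHIR99021, a GSK3 inhibitor that activates the WNT pathway. SOX2-OFF and SOX2-ON received CHIR99021 over the same day and came from the SOX2 TetON line, a derivative picked as a clone in which endogenous Sox2 was ablated by gene editing and a Sox2 transgene in the Hprt locus depends on doxycycline. Doxycycline was present in SOX2-ON and absent from SOX2-OFF and both wild type groups at this stage. Its own effect cannot be told apart from that of the Sox2 transgene. No TetON culture without CHIR99021 was among the samples, and a difference between a TetON group and a wild type group cannot be told apart from a difference between the lines.

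In the gastrulating mouse embryo, WNT and FGF signals at the posterior end keep a zone of caudal epiblast from which spinal cord and trunk mesoderm are made. Nkx1-2 is a homeobox gene of this caudal epiblast and of the youngest neural tissue that leaves it. Evx1 is a homeobox gene of the primitive streak, related to Drosophila even-skipped, and Evx1os is a long non-coding RNA read from the opposite strand. Gbx2 is a homeobox gene of the posterior epiblast and the anterior hindbrain, and it is also a gene of the naive pluripotent state. Sp8 encodes a zinc-finger factor of the SP family rather than a homeodomain protein. Mnx1 is a homeobox gene best known from motor neurons and the notochord.

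The manipulated gene was read first. Sox2 stood at 137 ± 29.7 TPM in EpiLC and 10.4 ± 3.01 in CEpiLC, with 187 ± 24.0 in SOX2-ON and 16.5 ± 4.48 in SOX2-OFF. TPM is RSEM's level per transcript length and library size, given as mean ± SD over 3 replicates. Library totals ran from 10408252 to 27337740 expected counts. The summed level of 7 markers of caudal epiblast and streak (T, Cdx1, Cdx2, Fgf8, Wnt3a, Hoxb8 and Hoxb9) was 1158 to 1463 TPM in CEpiLC and 1.57 to 2.41 in EpiLC, and the TetON groups had 216 to 284 in SOX2-ON and 918 to 947 in SOX2-OFF. Markers of motor neurons and neural tube (Isl1, Lhx3, Chat, Olig2, Neurog2, Pax6 and Sox1) summed to between 2.64 and 8.63 TPM over all 12 libraries. Naive pluripotency markers, a list of 9 genes with Nanog, Klf4 and Esrrb among them, summed to 277 to 367 TPM in SOX2-ON and 59.4 to 109 in SOX2-OFF, above the 19.1 to 48.2 of CEpiLC and the 27.2 to 33.0 of EpiLC. Nanog made up most of the mean sum in SOX2-OFF, at 50.5 ± 18.2 TPM. Of the 8 tested genes, 4 were called higher in SOX2-OFF than in CEpiLC and none lower. Against EpiLC 7 were higher in SOX2-OFF and 1 lower. Fibroblast genes of the feeder cells on which the stem cells were grown summed to 18.2 to 83.0 TPM, with the higher sums in CEpiLC (53.2 to 83.0). Thy1 made up most of the mean sum, at 42.1 ± 21.9 TPM, and 1 of the 7 genes, Col1a2, was called higher in CEpiLC than in EpiLC.

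The sequences just upstream of the genes show which letters the transcription start sites of the members have beside them. RefSeq positions and promoter windows of GRCm38.p6 (mm10) were found for all 6 members. Nkx1-2 lies on the minus strand at chr7:132596239-132599637, Gbx2 on the minus strand at chr1:89927962-89931176, Sp8 on the plus strand at chr12:118846288-118852578 and Mnx1 on the minus strand at chr5:29473823-29478470. The 250 bases before the start of 5 of them follow, 5′ to 3′ in the direction of the gene, from RefSeq. They are shown for the genes whose levels the results turn on, and for Sp8 the window with a TCF/LEF match is given. That window lies inside the annotated Sp8 gene. Its bases after the start were not found in a GENCODE transcript of Sp8, whereas those of all other member windows were found. Capitals mark matches to 4 short motifs searched on both strands: CTTTGA (TCF/LEF, the factors that carry the WNT response), ATTGTT (SOX), TTTATNG (CDX) and GGTGTGA (T-box).
Nkx1-2, chr7:132599638-132599887, minus strand: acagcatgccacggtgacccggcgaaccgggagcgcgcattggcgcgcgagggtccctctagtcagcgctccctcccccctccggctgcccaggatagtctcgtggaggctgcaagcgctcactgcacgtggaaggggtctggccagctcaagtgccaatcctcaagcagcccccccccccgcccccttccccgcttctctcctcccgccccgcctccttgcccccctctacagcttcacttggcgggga
Evx1, chr6:52313248-52313497, plus strand: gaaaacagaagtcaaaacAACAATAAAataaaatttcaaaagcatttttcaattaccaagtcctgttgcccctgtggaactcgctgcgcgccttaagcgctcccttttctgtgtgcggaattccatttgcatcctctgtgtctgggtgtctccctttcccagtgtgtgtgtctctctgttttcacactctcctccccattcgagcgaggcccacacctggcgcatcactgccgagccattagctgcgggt
Evx1os, chr6:52314833-52315082, minus strand: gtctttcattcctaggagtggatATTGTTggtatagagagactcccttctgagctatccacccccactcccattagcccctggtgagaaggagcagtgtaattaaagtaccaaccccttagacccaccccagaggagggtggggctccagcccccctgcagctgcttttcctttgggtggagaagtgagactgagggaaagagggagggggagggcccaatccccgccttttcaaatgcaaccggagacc
Gbx2, chr1:89931177-89931426, minus strand: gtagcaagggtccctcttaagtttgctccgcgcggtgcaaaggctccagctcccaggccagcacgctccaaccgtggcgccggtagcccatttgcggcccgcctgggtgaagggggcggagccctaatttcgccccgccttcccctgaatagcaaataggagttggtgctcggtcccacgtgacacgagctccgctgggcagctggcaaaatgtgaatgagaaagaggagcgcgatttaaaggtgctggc
Sp8, chr12:118846983-118847232, plus strand: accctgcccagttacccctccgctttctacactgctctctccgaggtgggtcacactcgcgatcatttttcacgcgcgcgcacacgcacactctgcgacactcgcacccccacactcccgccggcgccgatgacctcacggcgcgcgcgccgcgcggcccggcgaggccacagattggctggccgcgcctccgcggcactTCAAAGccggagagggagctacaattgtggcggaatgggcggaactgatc

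Windows of 300 bases, 250 before and 50 after the start, were searched. Neither Nkx1-2, Gbx2 nor Mnx1 had a match to any of the 4 motifs in its window. The Evx1 window held the reverse of the SOX motif at bases -232 to -227 from the start and the reverse of the CDX motif at -230 to -224, and these overlap in the letters printed. Evx1os had a SOX match at -227 to -222. Sp8 has 3 annotated windows, and the TCF/LEF match at -50 to -45 was in the second of them, while the other windows each held a CDX match. Of all 32851 windows in the RefSeq table, 16.0% held the TCF/LEF motif, 10.7% the SOX motif, 10.9% the CDX motif and 3.98% the T-box motif. These shares are per window, and Sp8 was searched in 3. A match is a description of letters and not a binding site.

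Evx1 and Evx1os share a locus at the edge of the Hoxa cluster. Evx1 lies on the plus strand at chr6:52313498-52318389. Evx1os lies on the minus strand at chr6:52308389-52314832, so that it starts 1334 bases inside the Evx1 gene, in its first intron, and is transcribed back across the Evx1 start. The gene bodies overlap by 1335 bases, but the annotated exons share only 73 bases on opposite strands. Libraries and counting were strand-specific, which keeps reads of the pair apart.

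**Figure D1:**
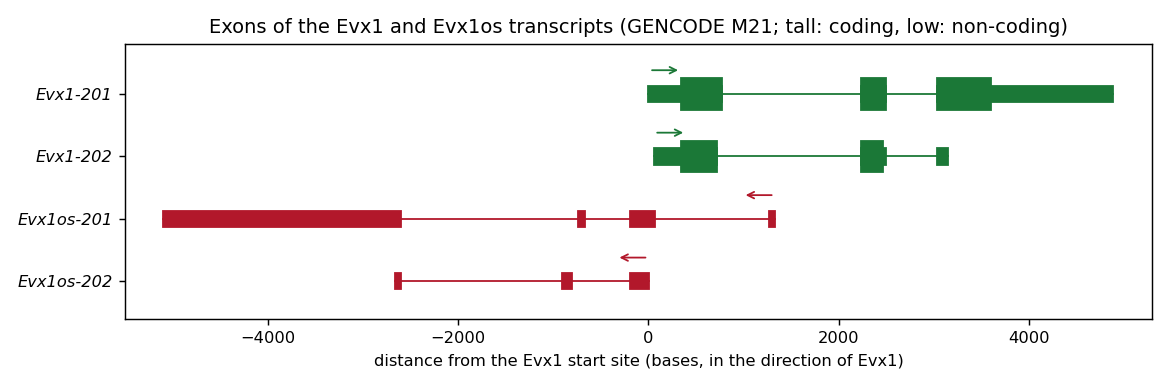
Exons of the annotated transcripts of Evx1 (green, read to the right) and Evx1os (red, read to the left), against the distance in bases from the Evx1 start site; tall boxes are coding and low boxes non-coding. The first exon of Evx1os-201 lies in the first Evx1 intron, and its second exon covers the Evx1 start, where the 73 shared exon bases lie.

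The first comparison asked what WNT activation from day 2 to day 3 does to the genes in wild type cells. Nkx1-2, Sp8, Evx1 and Evx1os went from at most 1.14 TPM in any EpiLC library to between 17.2 and 432 TPM in the CEpiLC libraries, Nkx1-2 the highest of them. Gbx2 rose from a level already present in EpiLC, and Mnx1 rose at a low level, from 0.37 to 1.54 TPM in mean. All 6 passed the test as higher in CEpiLC, against 22.1% of the 14196 tested genes called higher and 20.1% called lower (edgeR, adjusted p at most 0.05). In bulk RNA, a change in the share of cells that express a gene and a change in RNA per cell cannot be told apart.

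Nkx1-2 was at 0.79, 0.73 and 1.14 TPM in EpiLC replicates 1, 2 and 3 and at 432, 356 and 244 TPM in CEpiLC. The groups lay far apart, and the fold change was 399 (8.64 ± 0.34 SE on the log2 scale, edgeR adjusted p = 1.73e-09). Gbx2 already had reads in every EpiLC library, at 7.69, 4.19 and 7.90 TPM, and reached 158, 122 and 101 TPM in CEpiLC. This was a 19.6-fold change (log2 4.29 ± 0.28, edgeR adjusted p = 1.31e-07), on a higher starting level than any other member had. Sp8 rose from 0.62, 0.29 and 0.26 TPM to 30.0, 33.3 and 32.6 TPM. Its CEpiLC replicates were the tightest of the members, and the fold change was 77.7 (log2 6.28 ± 0.20, edgeR adjusted p = 3.12e-10).

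Evx1 had a single count in each EpiLC library (0.03, 0.04 and 0.05 TPM) and stood at 47.9, 32.3 and 76.2 TPM in CEpiLC. The pooled ratio of the groups was 1242, with a 95% counting interval of 425 to 6024, and the edgeR adjusted p was 7.41e-08. Evx1os had no count in EpiLC and 25.3, 17.2 and 39.8 TPM in CEpiLC. It was at least 184-fold higher in CEpiLC, against a floor of 3 counts per EpiLC library (edgeR adjusted p = 4.64e-07). Pooled ratios and their intervals use counts summed over the replicates of a group. Intervals and floors therefore leave out the spread between replicates and cover counting error only. The reads also carry no molecular identifiers. For both genes the CEpiLC replicates stood in the same order, with replicate 3 highest and replicate 2 lowest.

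Mnx1 was measured by 2 to 22 counts in each library, with 0.29, 0.61 and 0.22 TPM in EpiLC and 1.01, 0.71 and 2.89 TPM in CEpiLC. The groups did not overlap, and the log2 change of 1.82 ± 0.61 passed the test (edgeR adjusted p = 0.0281). The call was lost without EpiLC replicate 1 (1.62, adjusted p = 0.0943), without EpiLC replicate 3 (1.62, adjusted p = 0.0801) and without CEpiLC replicate 3 (1.17, adjusted p = 0.102).

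**Figure D2:**
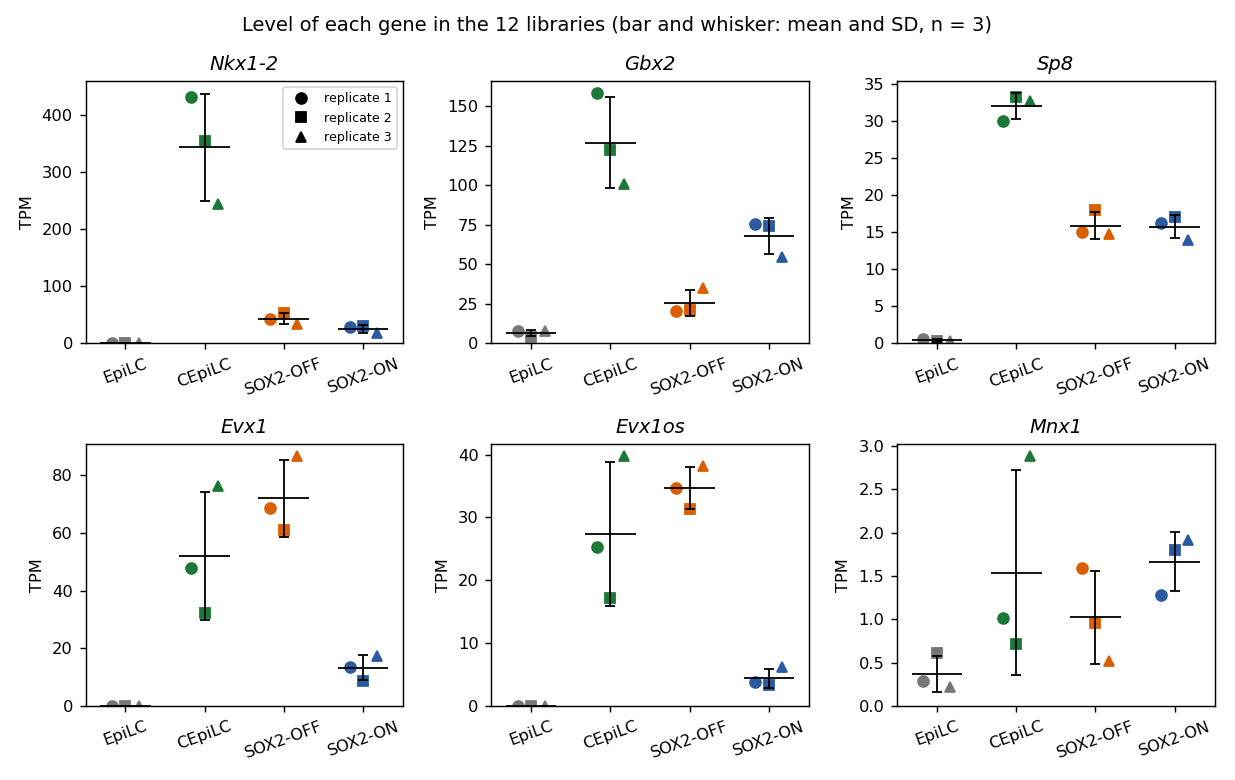
TPM of each gene in EpiLC, CEpiLC, SOX2-OFF and SOX2-ON on linear axes from 0; circles, squares and triangles are replicates 1, 2 and 3, and bar and whisker give mean and SD (n = 3). Nkx1-2, Gbx2 and Sp8 are highest in CEpiLC, whereas Evx1 and Evx1os overlap between CEpiLC and SOX2-OFF and are low in SOX2-ON; the Mnx1 axis ends near 3 TPM.

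The 3 CEpiLC replicates were not alike in which member was high. Replicate 3 had the lowest Nkx1-2 (244 TPM) and Gbx2 (101 TPM) and the highest Evx1 (76.2 TPM) and Evx1os (39.8 TPM). The same library had the highest levels of Msgn1 and Tbx6, genes of presomitic mesoderm, with 364 TPM of Msgn1 against 64.5 and 94.98 in replicates 1 and 2, and 86.2 TPM of Tbx6 against 10.9 and 23.6. It was also the library with the lowest total, 10408252 counts. In the other CHIR99021-treated groups, too, replicate 3 held the highest Evx1 and the lowest Nkx1-2. Gbx2 was lowest in replicate 3 of SOX2-ON (54.4 TPM) but highest in replicate 3 of SOX2-OFF (35.2 TPM). The part of these mesoderm genes and of depth in the spread of the members was not tested.

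The second comparison set SOX2-OFF, the TetON line without doxycycline, against the wild type cells of CEpiLC. Sox2 RNA itself was not lower in SOX2-OFF at this time. It was called higher than in CEpiLC, by log2 0.65 ± 0.24, with overlapping libraries (edgeR adjusted p = 0.0367). Counts per gene do not separate the transgene from the edited endogenous gene, and they do not measure SOX2 protein. Nkx1-2, Gbx2 and Sp8 were lower in SOX2-OFF, whereas Evx1, Evx1os and Mnx1 did not pass the test in the fit without a replicate block. These 3 of the 6 members were called lower, where 24.9% of tested genes were called lower, and none was called higher, where 23.6% were (edgeR).

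Nkx1-2 fell to 42.2, 52.9 and 34.3 TPM in SOX2-OFF, below every CEpiLC library. Its level was 7.83-fold lower than in CEpiLC (log2 -2.97 ± 0.22, edgeR adjusted p = 4.44e-07). Gbx2 was at 20.5, 20.9 and 35.2 TPM, likewise below every CEpiLC library, and had fallen 5.00-fold (log2 -2.32 ± 0.25, edgeR adjusted p = 6.53e-06). Sp8 was at 15.0, 18.0 and 14.7 TPM, again with no overlap, and had fallen 1.99-fold (log2 -0.99 ± 0.13, edgeR adjusted p = 4.72e-05). All 3 were still called higher than in EpiLC.

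Evx1 stood at 68.5, 60.9 and 86.7 TPM in SOX2-OFF, which overlaps the CEpiLC range. The log2 difference was 0.49 ± 0.27, with a 95% interval of -0.09 to 1.07 and an edgeR adjusted p of 0.150. Evx1os was at 34.7, 31.4 and 38.1 TPM, with a log2 difference of 0.37 ± 0.27 (95% interval -0.22 to 0.95, edgeR adjusted p = 0.281). Both genes lie on chromosome 6, whose genes were on median 0.54 higher (log2) in SOX2-OFF than in CEpiLC, and with this shift removed the differences were -0.046 for Evx1 (adjusted p = 0.905) and -0.17 for Evx1os (adjusted p = 0.641). Without CEpiLC replicate 3 they were 0.86 (adjusted p = 0.00747) and 0.72 (adjusted p = 0.0172). With the replicate number as a block and all libraries kept they were 0.55 (adjusted p = 0.00166) and 0.44 (adjusted p = 0.0310), and both genes were then called higher, although the numbers were not shown to pair these groups. Mnx1 was at 1.59, 0.96 and 0.52 TPM and overlapped CEpiLC (log2 -0.36, 95% interval -1.5 to 0.78, edgeR adjusted p = 0.600).

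The third comparison set SOX2-ON, in which Sox2 stayed high through WNT activation, against CEpiLC. Nkx1-2, Evx1, Evx1os, Gbx2 and Sp8 were all lower in SOX2-ON; Nkx1-2 had the largest change, and Gbx2 and Sp8 changed by about 2-fold. These were 5 of the 6 members, against 28.6% of tested genes called lower, and none was called higher, against 27.9% (edgeR). The median gene of chromosome 6 was 0.55 higher (log2) here too, which runs against the direction of Evx1 and Evx1os.

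Nkx1-2 was at 29.3, 29.6 and 18.0 TPM in SOX2-ON, 13.7-fold lower than in CEpiLC (log2 -3.78 ± 0.23, edgeR adjusted p = 4.95e-08). Evx1 was at 13.6, 8.76 and 17.5 TPM, below every CEpiLC and SOX2-OFF library, and 4.0-fold lower than in CEpiLC (log2 -2.0 ± 0.29, edgeR adjusted p = 6.40e-05). Evx1os was at 3.88, 3.29 and 6.17 TPM, 6.28-fold lower (log2 -2.65 ± 0.30, edgeR adjusted p = 2.32e-05). With the chromosome shift removed the log2 changes of this pair were -2.54 and -3.20.

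Gbx2 was at 75.2, 73.9 and 54.4 TPM in SOX2-ON, 1.92-fold lower than in CEpiLC (log2 -0.94 ± 0.23, edgeR adjusted p = 0.00327). Its libraries stood between those of CEpiLC and SOX2-OFF, apart from both. Sp8 was at 16.2, 16.98 and 14.0 TPM, 2.09-fold lower (log2 -1.06 ± 0.13, edgeR adjusted p = 1.97e-05). Mnx1 was at 1.28, 1.80 and 1.92 TPM, within the CEpiLC range (log2 0.23, 95% interval -0.82 to 1.28, edgeR adjusted p = 0.711).

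SOX2-ON and SOX2-OFF are the same line with and without doxycycline, so this comparison holds the line constant. It does not separate Sox2 from doxycycline itself. The members split in direction. Evx1, Evx1os and Nkx1-2 were lower in SOX2-ON, 3 of the 6 where 14.1% of tested genes were called lower. Gbx2 was higher, 1 of the 6 where 14.8% were called higher (edgeR).

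Evx1 was 5.61-fold lower in SOX2-ON than in SOX2-OFF (log2 -2.49 ± 0.29, edgeR adjusted p = 3.73e-05), and Evx1os 8.11-fold lower (log2 -3.02 ± 0.30, edgeR adjusted p = 3.15e-05). Chromosome 6 differed by 0.01 between these groups. Gbx2 went the other way and was 2.60-fold higher (log2 1.38 ± 0.24, edgeR adjusted p = 0.000946), with every SOX2-ON library above every SOX2-OFF library. Nkx1-2 was 1.75-fold lower (log2 -0.81 ± 0.23, edgeR adjusted p = 0.0162), a difference that lost its call without SOX2-OFF replicate 2 (-0.63, adjusted p = 0.0864) or without SOX2-ON replicate 3 (-0.61, adjusted p = 0.0554). Sp8 overlapped between the groups, with a log2 difference of -0.07 and a 95% interval of -0.36 to 0.22 (edgeR adjusted p = 0.749), and its sign turned when SOX2-OFF replicate 2 (0.033) or SOX2-ON replicate 3 (0.016) was left out. Mnx1 also overlapped (log2 0.59, 95% interval -0.51 to 1.69, edgeR adjusted p = 0.423).

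**Figure D3:**
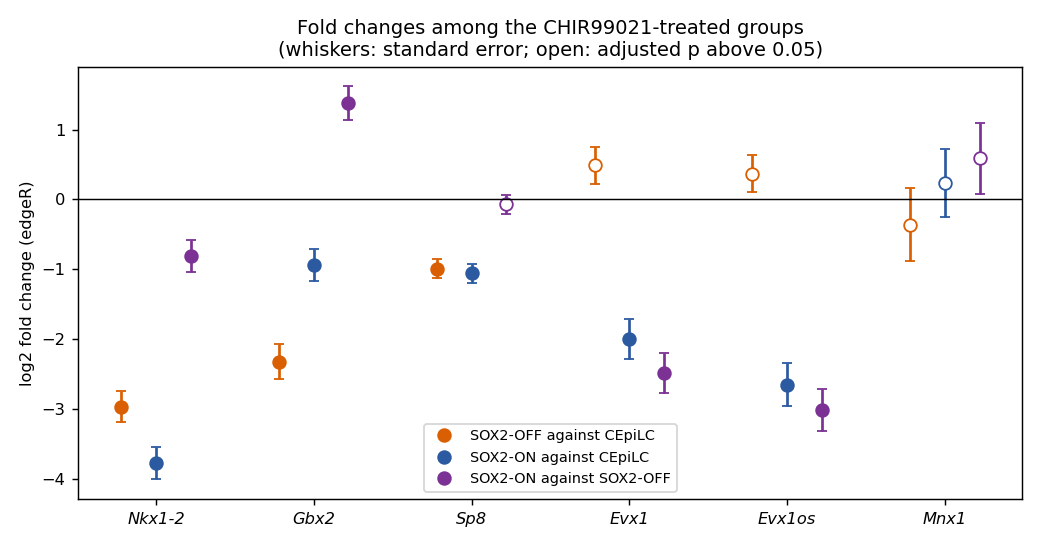
edgeR log2 fold changes of the genes in SOX2-OFF against CEpiLC (orange), SOX2-ON against CEpiLC (blue) and SOX2-ON against SOX2-OFF (purple); whiskers are standard errors and open points had an adjusted p above 0.05. Nkx1-2 is lowered in both TetON groups (-2.97 and -3.78), Evx1 and Evx1os are below 0 in SOX2-ON against either of the other groups, and Gbx2 is the one gene above 0 with a filled point (1.38).

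Against EpiLC, which had neither CHIR99021 nor the transgene, SOX2-ON had all 6 members called higher, where 30.7% of tested genes were called higher and 29.1% lower. The log2 changes were 4.86 for Nkx1-2, 3.35 for Gbx2, 5.22 for Sp8 and 2.05 for Mnx1 (edgeR adjusted p between 1.66e-09 and 0.00872). The pooled ratio for Evx1 was 335 (95% counting interval 114 to 1625), and Evx1os rose at least 28.9-fold. In SOX2-OFF, 5 of the 6 were called higher than in EpiLC, where 31.5% of tested genes were called higher and 30.6% lower. The changes were 5.67 for Nkx1-2, 1.97 for Gbx2 and 5.29 for Sp8 (edgeR adjusted p between 1.06e-09 and 5.41e-05), with a pooled ratio of 1823 for Evx1 (95% counting interval 623 to 8844) and at least 235-fold for Evx1os. Mnx1 missed the threshold (log2 1.46 ± 0.63, edgeR adjusted p = 0.0599), which it passed without EpiLC replicate 2 (2.01, adjusted p = 0.0441) or without SOX2-OFF replicate 3 (1.71, adjusted p = 0.0393).

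The order of the 4 groups therefore differed from gene to gene. For Nkx1-2 it was CEpiLC, SOX2-OFF, SOX2-ON and EpiLC from high to low, with no overlap between neighbours. For Gbx2 it was CEpiLC, SOX2-ON, SOX2-OFF and EpiLC, again with no overlap. For Sp8 CEpiLC stood above SOX2-OFF and SOX2-ON, which did not differ beyond their spread, and EpiLC was lowest. For Evx1 and Evx1os SOX2-OFF and CEpiLC overlapped at the top, SOX2-ON stood below them and EpiLC was at or near 0. For Mnx1 EpiLC was below CEpiLC and SOX2-ON, and the other neighbours in the order did not differ beyond their spread.

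Ratios between members were taken within each library, as the log2 ratio of TPM + 0.1, to compare how they responded. In CEpiLC, Evx1 was at 11.1, 9.07 and 31.3% of the Nkx1-2 level, and in SOX2-OFF at 163, 115 and 253%, so that Evx1 exceeded Nkx1-2 in every SOX2-OFF library and in no CEpiLC library. In SOX2-ON it was at 46.5, 29.6 and 97.2%. Gbx2 was at 36.6, 34.3 and 41.3% of the Nkx1-2 level in CEpiLC, at 48.6, 39.4 and 103% in SOX2-OFF, and at 256, 250 and 303% in SOX2-ON. Gbx2 was thus the higher of the pair in every SOX2-ON library and the lower in every CEpiLC library.

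Group means of the log2 ratio of Evx1 to Nkx1-2 differed by 3.51 between SOX2-OFF and CEpiLC, with the chromosome 6 shift included. Those of Gbx2 to Nkx1-2 differed by 2.84 between SOX2-ON and CEpiLC and by 2.20 between SOX2-ON and SOX2-OFF. Libraries of these groups did not overlap, and each had p = 0.1 in the exact two-sided permutation test (adjusted p = 0.12 over 12 tests). With 3 against 3 libraries 0.1 is the smallest p that the test can give, so none of the 12 could pass the threshold. The ratio of Sp8 to Nkx1-2 exceeded that of CEpiLC by 2.72 for SOX2-ON and by 1.97 for SOX2-OFF. Evx1os ran at 52.7, 53.3 and 52.2% of the Evx1 level in CEpiLC, at 50.6, 51.5 and 44.0% in SOX2-OFF and at 28.5, 37.6 and 35.3% in SOX2-ON. The log2 ratio of this pair was 0.63 below CEpiLC in SOX2-ON, a smaller difference than either gene showed on its own.

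**Figure D4:**
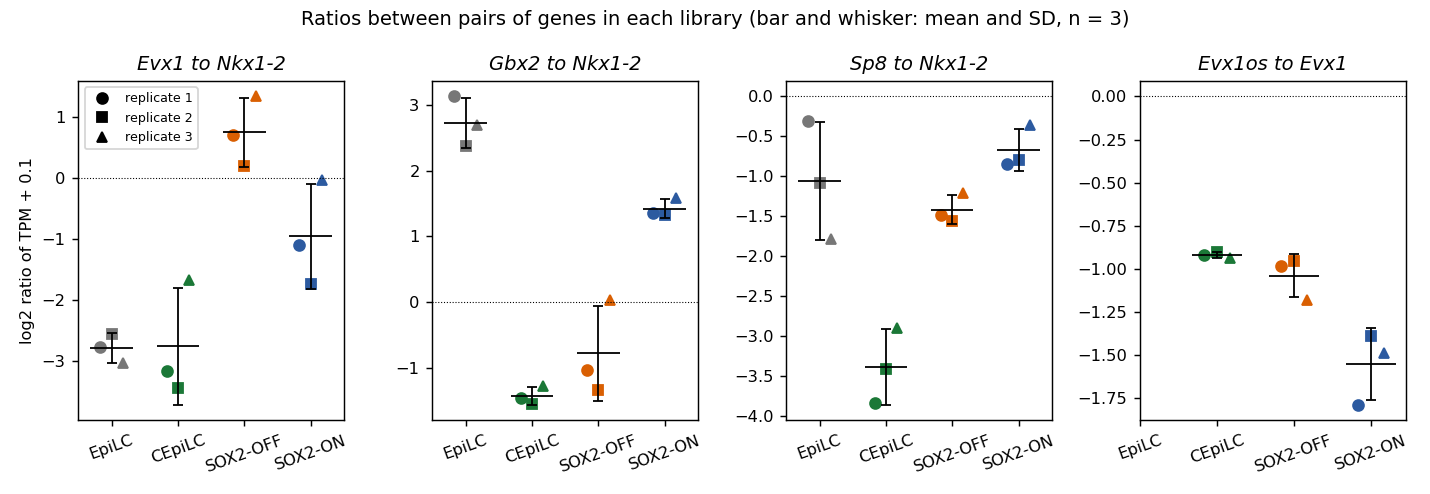
Log2 ratio of TPM + 0.1 between pairs of genes in each library, by group, with mean and SD (n = 3); the dotted line marks equal levels, and EpiLC is left out for Evx1os to Evx1 because Evx1os had no count there. Evx1 lies above Nkx1-2 only in SOX2-OFF libraries, and Gbx2 lies well above Nkx1-2 in EpiLC and SOX2-ON. The shift of chromosome 6, which holds Evx1, was not removed.

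The genes with the profiles most like each member were found by the root mean square difference of centred log2 CPM, counts scaled to library size, over the 12 libraries, members left out. Evx1 and Evx1os were each nearer to one another (0.36) than to any other tested gene. Nearest to Evx1 were Cdx1 (0.39), the caudal homeobox factor, T (0.63), the brachyury gene of the primitive streak, and Sp5 (0.66), a WNT-induced relative of Sp8. Nearest to Evx1os were Wnt6 (0.46), Cdx1 (0.52) and Sprr2a3 (0.60), the last of a family of near-identical copies. T showed the same order of group means as Evx1, with 809 ± 19.3 TPM in SOX2-OFF, 711 ± 215 in CEpiLC and 152 ± 17.9 in SOX2-ON. Nkx1-2 had as nearest genes Fzd10 (0.70), a WNT receptor, Foxb1 (0.72) and Notum (0.83), a secreted WNT inhibitor. Fzd10 (0.49) was also nearest to Sp8, before Fst (0.62) and Foxb1 (0.73). Gbx2 had Apod (0.52), Efnb1 (0.54) and the ligand gene Wnt5a (0.61), and Wnt5a stood at 28.1 ± 4.75 TPM in CEpiLC against 15.0 ± 2.11 in SOX2-ON and 12.7 ± 3.48 in SOX2-OFF. The genes nearest to Mnx1 were Mal (0.43), Cped1 (0.46) and A730017L22Rik (0.47), all under 2 TPM in mean. These distances describe likeness over libraries that share their groups.

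Genes beside the members on the chromosome were read from the RefSeq table. Nkx1-2 lies 19841 bases from Oat, the gene of ornithine aminotransferase, and 10978 bases from Lhpp, a phosphatase gene, with 1 pseudogene not in the table between Nkx1-2 and Lhpp. Lhpp was at 38.2, 37.8 and 49.7 TPM in EpiLC and at 311, 253 and 245 TPM in CEpiLC, with SOX2-OFF at 58.8, 59.2 and 57.5 and SOX2-ON at 42.0, 40.9 and 33.2. Every CEpiLC library stood above all others. The log2 changes were 2.71 for CEpiLC against EpiLC, and against CEpiLC -2.19 for SOX2-OFF and -2.84 for SOX2-ON (edgeR adjusted p = 4.82e-09, 6.66e-08 and 5.51e-09). Oat had the group order of Nkx1-2 itself, from 438 ± 44.2 TPM in CEpiLC over 269 ± 13.2 for SOX2-OFF and 196 ± 13.6 for SOX2-ON down to 99.0 ± 5.70 for EpiLC. Its log2 changes were 2.16 for CEpiLC against EpiLC, and against CEpiLC -0.69 for SOX2-OFF and -1.20 for SOX2-ON (edgeR adjusted p = 8.68e-10, 7.60e-06 and 6.21e-08).

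**Figure D5:**
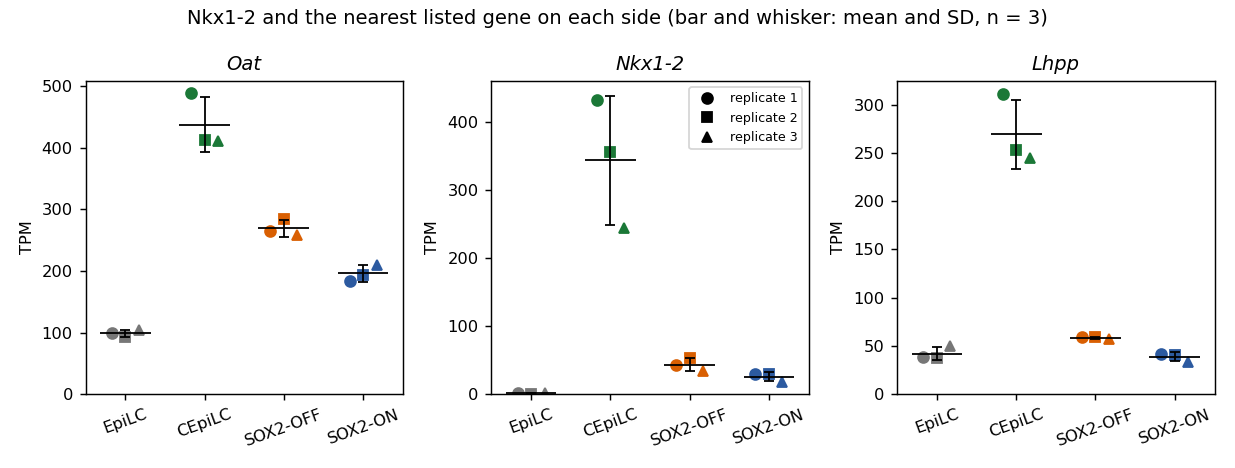
TPM of Oat, Nkx1-2 and Lhpp in the 4 groups on linear axes from 0, with replicates as circles, squares and triangles and mean and SD (n = 3). All of them are highest in CEpiLC; Lhpp returns to near its EpiLC level in SOX2-ON (38.7 against 41.9 TPM in mean), and Oat does not.

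Neighbours of the other members were read in the same way. Agap1, 32680 bases from Gbx2, was at 19.1 ± 0.58 TPM in EpiLC and 18.2 ± 0.57 in CEpiLC (log2 -0.06, edgeR adjusted p = 0.397) while Gbx2 changed 19.6-fold. Its differences between the other groups were small and in the direction of Gbx2, at log2 -0.41 in SOX2-OFF against CEpiLC, -0.21 in SOX2-ON against CEpiLC and 0.20 in SOX2-ON against SOX2-OFF (edgeR adjusted p = 7.18e-05, 0.00718 and 0.0198). Nom1, 21654 bases from Mnx1, changed by log2 -0.19 in CEpiLC against EpiLC (edgeR adjusted p = 0.0213). It was not called in SOX2-OFF against CEpiLC (-0.06), SOX2-ON against CEpiLC (-0.04) or SOX2-ON against SOX2-OFF (0.02). Abcb5, 14908 bases from Sp8, was at no more than 0.17 TPM in mean in any group. On the far side of Sp8 the nearest listed gene was D230030E09Rik, a non-coding RNA 316095 bases away, at 0 TPM in EpiLC, 2.79 ± 0.45 TPM in CEpiLC and 0.87 ± 0.34 TPM in SOX2-ON. Like Sp8, it was called higher in CEpiLC than in EpiLC (edgeR adjusted p = 5.22e-05) and lower in SOX2-ON than in CEpiLC (log2 -1.66, edgeR adjusted p = 0.00493), and its difference in SOX2-OFF did not pass (log2 -0.82, edgeR adjusted p = 0.0989). Hottip, the non-coding RNA at the end of the Hoxa cluster and 40786 bases from Evx1os, was at 0 in EpiLC and CEpiLC, and Hoxa13, the last Hox gene before it, was too.

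Of the 14 genes of the Hoxa cluster list (Hox genes and 3 non-coding RNAs), 7 passed the filter. In CEpiLC against EpiLC 6 of these were called higher, with a median log2 change of 6.90, or 3.84 with the 6 genes at the floor in EpiLC set to their bounds. The median of all tested genes was between -0.013 and 0.015 in each of the 6 comparisons. In SOX2-OFF against CEpiLC 4 were lower and none higher (median -0.59), and in SOX2-ON 4 were lower and 1 higher (median -2.22). These values carry the same shift of chromosome 6 as Evx1, 0.54 and 0.55 (log2) higher in the TetON groups. The gene called higher was Hoxa10, at 0.23 ± 0.34 TPM in CEpiLC and 1.37 ± 0.77 in SOX2-ON (log2 3.04).

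The list of 18 other genes of the caudal epiblast network (WNT and FGF ligands, Cdx factors, targets and mesoderm genes) was read beside the members. In CEpiLC against EpiLC 16 were higher and 1 lower, with a median log2 change of 6.19. Cdx1 was at least 233-fold higher, Msgn1 was higher by 157-fold or more, and Sp5 had a pooled ratio of 3062 (95% counting interval 1048 to 14851), while Sall4 was lower by log2 -0.31 and Cyp26a1, which degrades retinoic acid, was not called (-1.28). In SOX2-OFF against CEpiLC 1 was higher and 11 lower (median -0.85). Wnt8a (-3.34) and Cdx4 (-3.12) were lower and Cyp26a1 (3.22) was the one called higher, whereas T (0.20) and Sall4 (-0.16) were not called. In SOX2-ON against CEpiLC 17 were lower and 1, Sall4 (0.66), was higher (median -2.10), with the largest changes in Msgn1 (-7.58), Tbx6 (-6.73) and Wnt3a (-6.05) and the smallest in Axin2 (-0.58), a feedback target of WNT signalling. Chromosomes 8 and 11 were shifted as well as chromosome 6. Their median genes differed from CEpiLC by log2 0.57 and -0.55 in SOX2-OFF and by 0.58 and -0.56 in SOX2-ON. Values and calls of listed genes on chromosomes 6, 8 or 11 carry these shifts, which were not removed. The shifts are about as large as the smallest change named for SOX2-ON against CEpiLC, that of Axin2 (-0.58).

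In SOX2-ON against SOX2-OFF 3 genes of this list were higher and 12 lower (median -1.30). Msgn1 (-7.04), Cyp26a1 (-5.78) and Tbx6 (-5.11) were lower, as Evx1 was. Axin2 (-0.05) and Wnt5a (0.13) were not called. The 3 higher genes were Cdx2 (0.97), Cdx4 (1.5) and Sall4 (0.82), named here after their values were seen, and they moved in the direction of Gbx2. Against EpiLC the list had 12 higher and 2 lower in SOX2-ON (median 3.28, or 2.70 with bounds) and 16 higher and 1 lower in SOX2-OFF (median 5.00, or 4.28 with bounds).

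Paralogues of the members were read, and the tested ones were all SP genes, so nothing is shown for the homeobox families. Of all tested genes, 22.1% were called higher and 20.1% lower in CEpiLC against EpiLC. The shares were 23.6% and 24.9% in SOX2-OFF against CEpiLC, and 27.9% and 28.6% in SOX2-ON against CEpiLC. For SOX2-ON against SOX2-OFF they were 14.8% and 14.1%. Nkx1-1, Evx2, Gbx1 and Sp7 did not pass the filter on low counts. Of the 7 tested SP genes, Sp5 and Sp4 (0.81) were called higher in CEpiLC than in EpiLC and Sp1 (-0.20) lower (list median -0.086). In SOX2-OFF against CEpiLC 1 was higher and 3 lower, with Sp6 (-1.11) and Sp4 (-0.75) the largest changes (list median -0.34). The shifts of chromosomes 6, 8 and 11 between the TetON groups and CEpiLC were not removed from the values of this list. In SOX2-ON against CEpiLC 3 were higher and 3 lower, Sp5 lowest among them (-1.67), at a list median of -0.21. Sp9 was called higher, with 0.61 TPM in SOX2-ON against 0.08 in CEpiLC, and its pooled ratio was 9.57 (95% counting interval 3.81 to 30.9). In SOX2-ON against SOX2-OFF, where Sp8 was not called, Sp9 was higher, with a pooled ratio of 7.67 (95% counting interval 3.05 to 24.8), and Sp5 (-1.28) lower, at a list median of 0.13.

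Markers of cell types in which the members are also known were read for the same groups. The motor neuron list had Lhx3, Chat and Olig2 too low to be tested, and its sums stayed under 9 TPM, while Mnx1 was at 0.71 to 2.89 TPM in CEpiLC. The notochord and node markers (Noto, Shh, Foxa2 and Chrd) summed to 6.82 to 19.2 TPM in CEpiLC and 2.29 to 2.5 in EpiLC, beside 5.74 to 12.7 in SOX2-ON and 15.3 to 19.97 in SOX2-OFF, and 2 of the 3 tested were called higher in CEpiLC than in EpiLC. Markers of the isthmus and anterior neural ridge, where Gbx2 and Sp8 are also expressed, summed to 0.48 to 1.5 TPM in CEpiLC and 2.23 to 10.8 in EpiLC, beside 4.34 to 5.96 in SOX2-ON and 1.02 to 1.29 in SOX2-OFF. Of the 8 tested naive pluripotency genes, SOX2-ON had 8 above CEpiLC, where 27.9% of tested genes were called higher. Gbx2 was lower in that comparison (log2 -0.94). Against SOX2-OFF, 5 of the 8 were higher, where 14.8% of tested genes were, and Gbx2 was higher too (log2 1.38). The part of these markers in the levels of Mnx1 and Gbx2 was not tested.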

How the data were processed

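Polyadenylated RNA was sequenced by the authors as strand-specific single-end reads, trimmed with cutadapt 1.16, aligned with STAR 2.5.2a to mm10 and quantified over RefSeq genes with RSEM 1.3.0. The deposited table holds an expected count for each gene and library, which need not be whole. It also holds TPM values as deposited by the authors, used here for levels and ratios (pseudocount 0.1). Replicates were pooled only for the pooled ratios and their counting intervals, and 0 columns were left unmapped.

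Expected counts were rounded and tested with edgeR 4.0.16 (quasi-likelihood, limma 3.58.1, R 4.3.3) with TMM scaling and no covariate, in 1 model of all 12 libraries. Of 24736 genes, 14196 passed filterByExpr. Adjusted p-values are Benjamini-Hochberg over all tested genes and a gene was called at 0.05 or below. DESeq2 1.42.0 was an alternative; the study used DESeq2 1.16.1. Intervals of log2 fold changes are 95% intervals from the F statistic. A gene at 3 counts or fewer in every library of a group was given a bound or a pooled ratio with an exact counting interval.

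The members, gene lists, motifs and alternatives were chosen with earlier results of these data known. Named were the members, Sox2, the 3 nearest profiles of each member, the nearest listed gene on each side of it, and up to 5 genes of a list, those with the largest and smallest changes. Library totals ran from 10408252 to 27337740 counts. As a check of pairing, each library's deviation from its group mean was correlated over genes with that of the library of the same number. For EpiLC with CEpiLC the 3 values of r were 0.120, 0.132 and 0.103. This meets the criterion for pairing (every r over 0.1) on the values alone. Libraries of different number were not correlated, so the check cannot show pairing or its absence. Elsewhere at least 1 value was under 0.1, and for SOX2-OFF with CEpiLC the values were 0.053, 0.179 and 0.173. The reported fits have no block, and the replicate block was an alternative. Values of 1 listed gene are not reported here. The tests were checked on simulated data.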

Additional observations from a re-analysis of the deposited data

How the results depend on the processing

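Of 574 alternative values of the members' log2 fold changes, 554 kept direction and side of the threshold, 7 changed sign, 6 passed the threshold and 7 lost it. Ratios kept their sign under all 84 alternatives run, which were a larger pseudocount and the removal of single replicates. Where the libraries of the groups did not overlap, such a removal cannot turn the sign. The chromosome shift was not removed from any ratio. The chromosome shift turned the SOX2-OFF against CEpiLC values of Evx1 to -0.046 and of Evx1os to -0.17. With the replicate number as a block, these became 0.55 (adjusted p = 0.00166) and 0.44 (adjusted p = 0.0310), and 5 rather than 3 members were called in that comparison. The block changed no other call. At an adjusted p of 0.01, Mnx1 in CEpiLC against EpiLC (1.82) and Nkx1-2 in SOX2-ON against SOX2-OFF (-0.81) were no longer called, and all called genes went from 5994 to 3968 and from 4091 to 2437 in these comparisons.

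When single replicates were left out, the log2 changes in SOX2-OFF against CEpiLC ran from 0.23 to 0.86 for Evx1, from 0.11 to 0.72 for Evx1os and from -0.80 to 0.30 for Mnx1, and 3 to 5 members were called. Mnx1 ran from 1.17 to 2.38 in CEpiLC against EpiLC, from 1.04 to 2.01 in SOX2-OFF against EpiLC and from -0.12 to 0.88 in SOX2-ON against CEpiLC. In SOX2-ON against SOX2-OFF, Nkx1-2 ran from -0.94 to -0.61 and Sp8 from -0.12 to 0.033.

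Mnx1 had no value in CEpiLC or SOX2-OFF against EpiLC when only the 6 libraries compared were fitted, where it did not pass the filter. Counts were low for Mnx1 (2 to 22 in a library) and for Evx1 and Evx1os in EpiLC, which limits the precision of their values. The cause of the changed calls was not tested.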
